A study of Mus musculus with 53 samples.

Results

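Lipid droplet coat and assembly proteins were described as 10 genes, Plin1, Plin2, Plin3, Plin4, Plin5, Cidea, Cidec, Fitm1, Fitm2 and Bscl2, out of 49568 genes listed for each sample. They were chosen by symbol for what their proteins are known to do. By the tissues in which they are known to be made, 4 members were grouped as adipocyte-type (Plin1, Plin4, Cidec and Cidea), 2 as oxidative-tissue members (Plin5 and Fitm1) and 4 as ubiquitous (Plin2, Plin3, Fitm2 and Bscl2). All 10 were listed with a value in each of the 53 sciatic nerve (SCN) samples, and all 10 had a high enough mean value to be tested in every pair of groups compared.

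A lipid droplet is a store of triglyceride and sterol ester inside a cell, wrapped in a layer of phospholipid and proteins. The perilipins coat it and control access of lipases to the stored fat, the CIDE proteins Cidea and Cidec let small droplets merge into large ones, and the FIT proteins and seipin, the product of Bscl2, act in the membrane of the endoplasmic reticulum where droplets are born. White adipocytes are known for Plin1 and Cidec and their very large droplet, muscle and other fat-burning tissue for Plin5 and Fitm1, and most cells that take up fatty acids for Plin2.

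The nerves came from male C57BL/6J mice without a genetic change, and the study asked how a fatty diet, diabetes and a return to normal chow alter lipid handling in the nerve. SD mice ate a standard diet throughout, and 5 were sampled at 16 and 8 at 24 weeks of age. HFD mice, the prediabetic model, ate a high-fat diet with 60% of its energy as fat from 5 weeks of age, and 7 were sampled at each age. HFD-STZ mice, the type 2 diabetes model, ate the same diet and were given streptozotocin, which destroys insulin-producing cells, at 12 weeks of age in doses of 75 and then 50 mg/kg, and 5 were sampled at 16 and 8 at 24 weeks. Dietary reversal (DR) returned mice from the high-fat to the standard diet for the last 8 weeks, which left 7 samples of HFD-DR and 6 of HFD-STZ-DR at an age of 24 weeks. The labels do not say whether each sample is a separate mouse, so p-values measure the spread between these samples. All values are the deposited log2 values, normalised between samples by the authors. The files do not give the reads behind a value, so no counting interval can be given, and the values were not set against gene length, so levels are compared between groups for 1 gene and not between genes.

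Plin1, Cidec and Plin4 varied together from nerve to nerve, as described further on, and the sequence just before the start of each is therefore printed, read 5′ to 3′ on the strand of the gene from RefSeq windows on the build GRCm38.p6 and ending at the last base before the first annotated base of the gene. Plin1 lies on the minus strand of chromosome 7, from 79720218 to 79732903, and the stretch printed is chr7:79732904-79733026, with the letters of 1 match to a C/EBP motif in capitals. Cidec lies on the minus strand of chromosome 6, from 113424634 to 113435760, and its stretch is chr6:113435761-113436010. Plin4 lies on the minus strand of chromosome 17, from 56100591 to 56109803, next to Plin5 at 56111601 to 56117596 on the same strand, and its stretch is chr17:56109804-56110032.
Plin1: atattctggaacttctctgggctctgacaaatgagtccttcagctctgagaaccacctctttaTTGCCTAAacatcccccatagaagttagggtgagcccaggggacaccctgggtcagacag
Cidec: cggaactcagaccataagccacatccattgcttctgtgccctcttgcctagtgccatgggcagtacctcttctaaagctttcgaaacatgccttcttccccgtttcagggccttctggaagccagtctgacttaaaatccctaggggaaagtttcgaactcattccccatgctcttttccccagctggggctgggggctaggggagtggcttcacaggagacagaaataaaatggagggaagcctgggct
Plin4: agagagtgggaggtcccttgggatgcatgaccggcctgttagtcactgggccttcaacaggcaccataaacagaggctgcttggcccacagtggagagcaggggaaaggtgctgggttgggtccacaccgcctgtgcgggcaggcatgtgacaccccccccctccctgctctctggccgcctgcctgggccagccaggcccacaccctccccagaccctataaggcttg

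The 250 bases before each RefSeq start were searched on both strands for letters bound by the fat-cell factors PPAR-gamma with RXR (a pair of AGGTCA in a row with 1 base between them, and the same with AGGNCA, which includes it) and C/EBP (TTGCGCAA, and TTGCNNAA, which includes it). RefSeq windows matched 9 of the 10 members, with 13 start sites in all. No member window held the pair of AGGNCA, which was found in 0.338% of 32851 mouse promoter windows, or TTGCGCAA, found in 0.164%. Plin1 held TTGCNNAA at positions -187 and -58 and Cidec at position -198 of its other start, counted back from the first base of the transcript, against 9.56% of all windows. The Plin1 match at -187 is the one in capitals, and the other matches lie outside the stretches printed. A match is a description of letters and no evidence of binding.

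Samples were alike in bulk, with medians over the tested genes between 9.04 and 9.33 and correlations between 0.916 and 0.994. Replicate 7 of HFD-STZ at 24 weeks stood apart most, with a median correlation of 0.941 with the other samples, followed by replicate 4 of HFD-STZ-DR at 0.954, and values without each of them are given beside the comparison of these groups. The mean of 6 Schwann cell markers lay between 17.69 and 18.57 in all nerves, so the defining cells of the labelled tissue were present throughout. The mean of 6 adipocyte markers (Adipoq, Cfd, Retn, Lep, Fabp4 and Adrb3) ran from 8.21 to 13.70, and that of 6 skeletal muscle markers (Acta1, Ckm, Mylpf, Tnnt3, Myh4 and Myh2) from 6.57 to 16.61. The nerves thus differed widely in transcripts of fat and of muscle, and these means are given beside the members that vary with them. In whole nerve, fewer cells of a type and less RNA per cell cannot be told apart.

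No member passed an adjusted p-value of 0.05 in limma in any of the 14 comparisons between groups or the 3 tests of a difference between effects, 170 tests in all, and the smallest adjusted p-value was 0.134. In the disease comparisons, 0 of 10 members stood against 0.00557% of all genes called for HFD against SD at 16 weeks, 0% for HFD-STZ against SD at 16 weeks, 0.121% for HFD against SD at 24 weeks and 0.0336% for HFD-STZ against SD at 24 weeks. In the reversal comparisons, 0 of 10 stood against 0.0108% of genes in the HFD model and 0.084% in the HFD-STZ model, where the groups with and without DR were compared. The members are therefore described by their values and by the unadjusted limma p, read against the share of all genes with p under 0.05. That share was 8.55% for HFD against SD at 16 weeks, where 5 of 10 members had p under 0.05, all of them with a positive difference. For HFD-STZ against SD at 16 weeks it was 8.41%, with 1 member higher and 1 lower. For HFD against SD at 24 weeks it was 9.05%, with 3 higher, and for HFD-STZ against SD at 24 weeks 5.99%, with 1 higher. For DR in the HFD model it was 6.72%, with 1 higher and 3 lower, and for DR in the HFD-STZ model 6.48%, with 0 higher and 7 lower. The median difference over the 10 members was 0.48, -0.01, 0.16, 0.24, -0.25 and -0.96 in these 6 comparisons, beside a median over all genes tested between -0.0019 and 0.0222. Between other groups of 24 weeks, 0 of 10 members had p under 0.05 for HFD-STZ against HFD (5.59% of all genes) and for HFD-DR against SD (5.14%), 2 for HFD-STZ-DR against HFD-DR (3.58%), and none was called, as no gene was (0%). Tests of whether the HFD-STZ effect differed with age (4.68% of all genes with p under 0.05) and whether the DR effect differed between the models (1.71%) gave 0 of 10. With runs of neighbouring library numbers, 8 in all and of unknown meaning, taken as a covariate, Plin1, Plin4 and Cidec passed the adjusted threshold in HFD-STZ against SD at 16 weeks, with differences of 1.97, 2.03 and 2.20. They were among 96 of 17879 genes called with the runs, where 0% of genes were called without them. In that fit SD replicate 5 and HFD-STZ replicate 2 were alone in their runs and so had no weight in the difference. For Plin1 they held the highest SD value (10.87) and the lowest HFD-STZ value (7.77). Both 16-week comparisons share the same SD mice, both disease comparisons at 24 weeks share theirs, and each reversal comparison shares its disease group with a disease comparison.

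**Figure D1:**
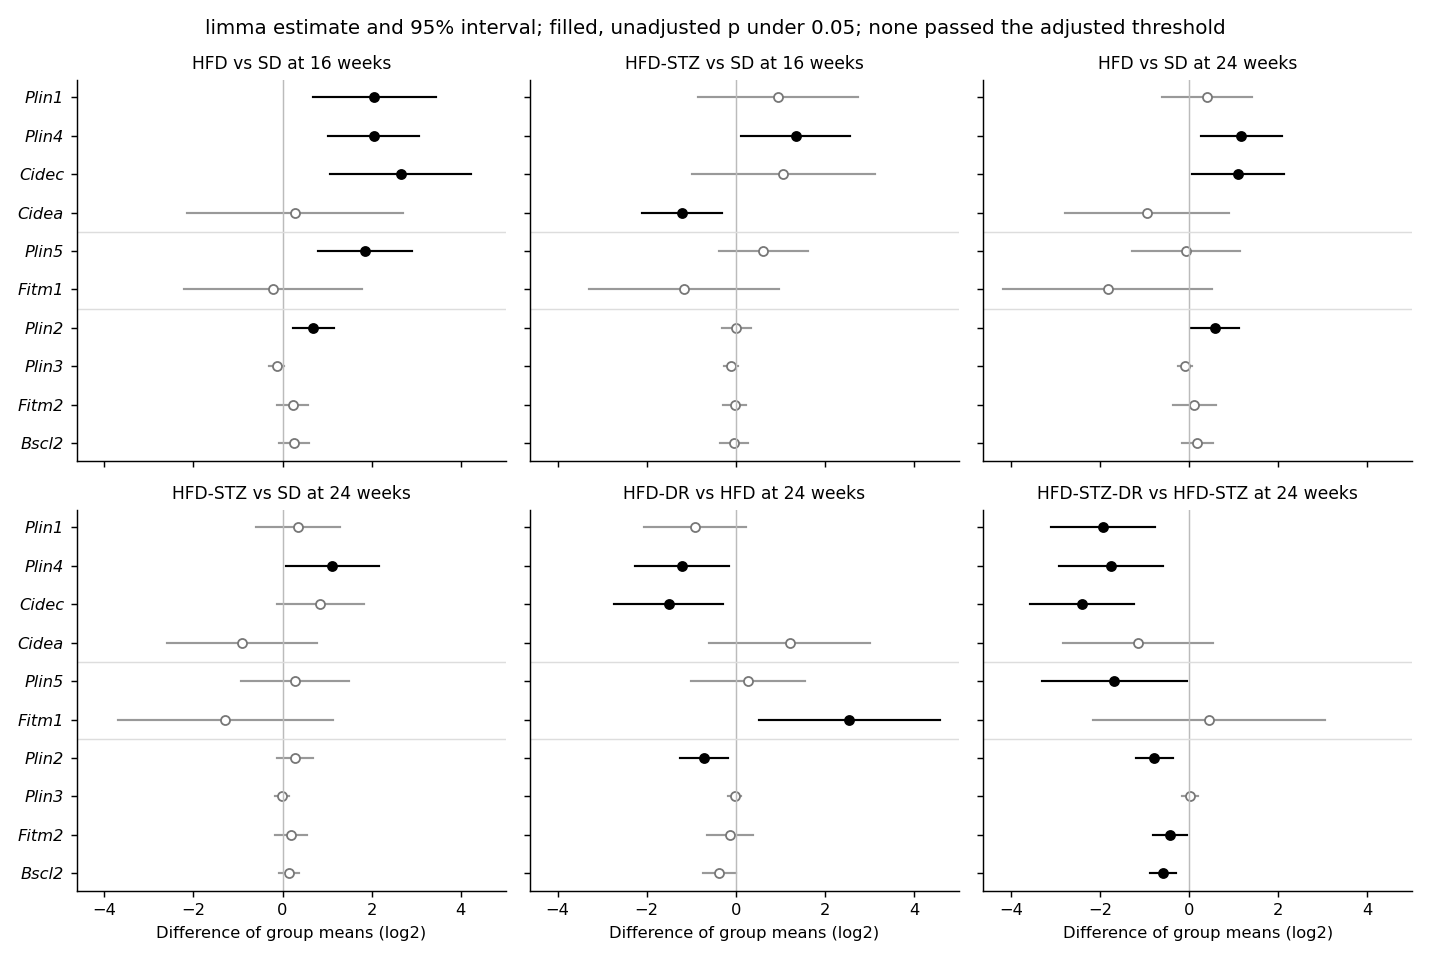
Difference of group means (log2) for the 10 members in the 6 disease and reversal comparisons, as the limma estimate with its 95% interval. Filled points have an unadjusted p under 0.05: 5 of 10 for HFD against SD at 16 weeks and 7 of 10, all below 0, for HFD-STZ-DR against HFD-STZ, and no member passed the adjusted threshold in any panel.

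Plin1, the coat protein that guards the large droplet of adipocytes, had 16-week SD values of 6.44, 7.47, 8.96, 10.03 and 10.87. In 16-week HFD nerves its lowest, median and highest values were 10.04, 10.76 and 11.93. Every HFD nerve lay above the SD median, and 2 of 7 above all SD nerves. The difference was 2.06 ± 0.64 (SE), with p = 0.00618 and adjusted p = 0.45 in limma and p = 0.0278 in the exact permutation test. HFD-STZ nerves of that age read 9.22, 7.77, 10.22, 10.29 and 11.03, within or just above the SD range, a difference from SD of 0.95 ± 0.82.

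At 24 weeks, SD nerves had Plin1 values from 9.20 over a median of 10.69 to 11.72. HFD nerves ran from 9.58 over 11.22 to 12.31 and HFD-STZ nerves from 9.40 over 11.49 to 12.16, and both overlapped the SD nerves across most of their range. Differences from SD were 0.40 ± 0.48 and 0.34 ± 0.45, each smaller than the SD within the groups. After DR, HFD-DR nerves ran from 8.66 over 10.52 to 11.53, 0.92 ± 0.54 below HFD on average, with exact permutation p = 0.156. HFD-STZ-DR nerves ran from 6.84 over 9.39 to 10.35, and 6 of 8 HFD-STZ nerves lay above all of them. That difference was -1.93 ± 0.54, with p = 0.00295 and adjusted p = 0.258 in limma and exact permutation p = 0.00799. It was -2.16 ± 0.51 without replicate 7 of HFD-STZ (adjusted p = 0.0841) and -1.99 ± 0.59 without replicate 4 of HFD-STZ-DR (adjusted p = 0.233).

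Cidec, which fuses droplets in white adipocytes, ranged from 8.02 to 14.81 over all nerves. SD nerves at 16 weeks read 8.02, 8.51, 10.51, 12.05 and 12.38, and HFD nerves ran from 11.70 over 12.58 to 14.37. Above the highest SD nerve lay 6 of 7 HFD nerves, and the difference of 2.66 ± 0.73 had p = 0.00294 and adjusted p = 0.392 in limma and exact permutation p = 0.0152. HFD-STZ nerves read 11.22, 8.92, 11.60, 11.91 and 13.17, with 4 of 5 inside the SD range and a difference from SD of 1.07 ± 0.94.

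In 24-week SD nerves Cidec ran from 10.83 over 12.36 to 13.16, in HFD nerves from 11.66 over 13.54 to 14.81 and in HFD-STZ nerves from 11.07 over 13.47 to 14.20. Of these, 4 of 7 HFD and 5 of 8 HFD-STZ nerves lay above the highest SD nerve. The HFD difference was 1.09 ± 0.49 (adjusted p = 0.532, exact permutation p = 0.0699) and the HFD-STZ difference 0.85 ± 0.46 (adjusted p = 0.832, exact permutation p = 0.116). With DR the values ran from 10.08 over 12.09 to 13.30 in HFD-DR and from 8.74 over 10.83 to 11.83 in HFD-STZ-DR nerves. The highest HFD-STZ-DR nerve lay below 6 of 8 HFD-STZ nerves, and 4 of 7 HFD nerves lay above every HFD-DR nerve. Differences were -1.51 ± 0.57 for DR in the HFD model (adjusted p = 0.651, exact permutation p = 0.0414) and -2.41 ± 0.55 for DR in the HFD-STZ model (limma p = 0.000522, adjusted p = 0.134, exact permutation p = 0.00333). The adjusted p for Cidec was 0.017 without replicate 6 of HFD-STZ and 0.0413 without replicate 7, the sample that stood apart most, and it was 0.149 without replicate 4 of HFD-STZ-DR. Calls over all genes rose as well, to 167 of 17792 without replicate 6 and 117 of 17884 without replicate 7, from 15 of 17862. By group mean, Cidec ranked from SD at 16 weeks (10.29) over HFD-STZ-DR, HFD-STZ at 16 weeks, HFD-DR, SD at 24 weeks, HFD at 16 weeks and HFD-STZ at 24 weeks to HFD at 24 weeks (13.34), and each neighbouring pair in this order differed by less than the SD of either group.

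Plin4, a coat protein of small nascent droplets in adipocytes, was the adipocyte-type member whose groups separated at 16 weeks. SD nerves read 9.26, 8.93, 9.9955, 10.95 and 10.95, and HFD nerves ran from 11.07 over 12.04 to 13.41. All 7 HFD nerves lay above all 5 SD nerves, as 0.317% of all genes tested did in that direction. The difference was 2.05 ± 0.47, with p = 0.000767 and adjusted p = 0.245 in limma and exact permutation p = 0.00253, the smallest that 7 against 5 allows. HFD-STZ nerves at 16 weeks read 11.03, 9.57, 11.52, 11.99 and 12.70, with 4 of 5 above the highest SD nerve, a difference of 1.35 ± 0.56 (adjusted p = 0.586, exact permutation p = 0.0714).

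Plin4 at 24 weeks ran from 9.92 over 11.18 to 12.49 in SD, from 11.20 over 12.40 to 13.56 in HFD and from 10.19 over 12.80 to 13.69 in HFD-STZ nerves. Differences from SD were close to each other, 1.18 ± 0.43 in HFD (adjusted p = 0.416, exact permutation p = 0.032) and 1.12 ± 0.49 in HFD-STZ mice (adjusted p = 0.816, exact permutation p = 0.0606). HFD-DR nerves ran from 9.58 over 11.16 to 12.34 and HFD-STZ-DR nerves from 9.16 over 10.69 to 11.47. The reversal differences were -1.20 ± 0.50 in the HFD model (adjusted p = 0.714, exact permutation p = 0.0559) and -1.75 ± 0.55 in the HFD-STZ model (adjusted p = 0.364, exact permutation p = 0.0153). In the HFD-STZ model it was -2.05 ± 0.47 without replicate 7 of HFD-STZ (adjusted p = 0.0785) and -1.94 ± 0.58 without replicate 4 of HFD-STZ-DR (adjusted p = 0.233). Set against SD, HFD-DR differed by -0.03 ± 0.47 and HFD-STZ-DR by -0.63 ± 0.43.

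**Figure D2:**
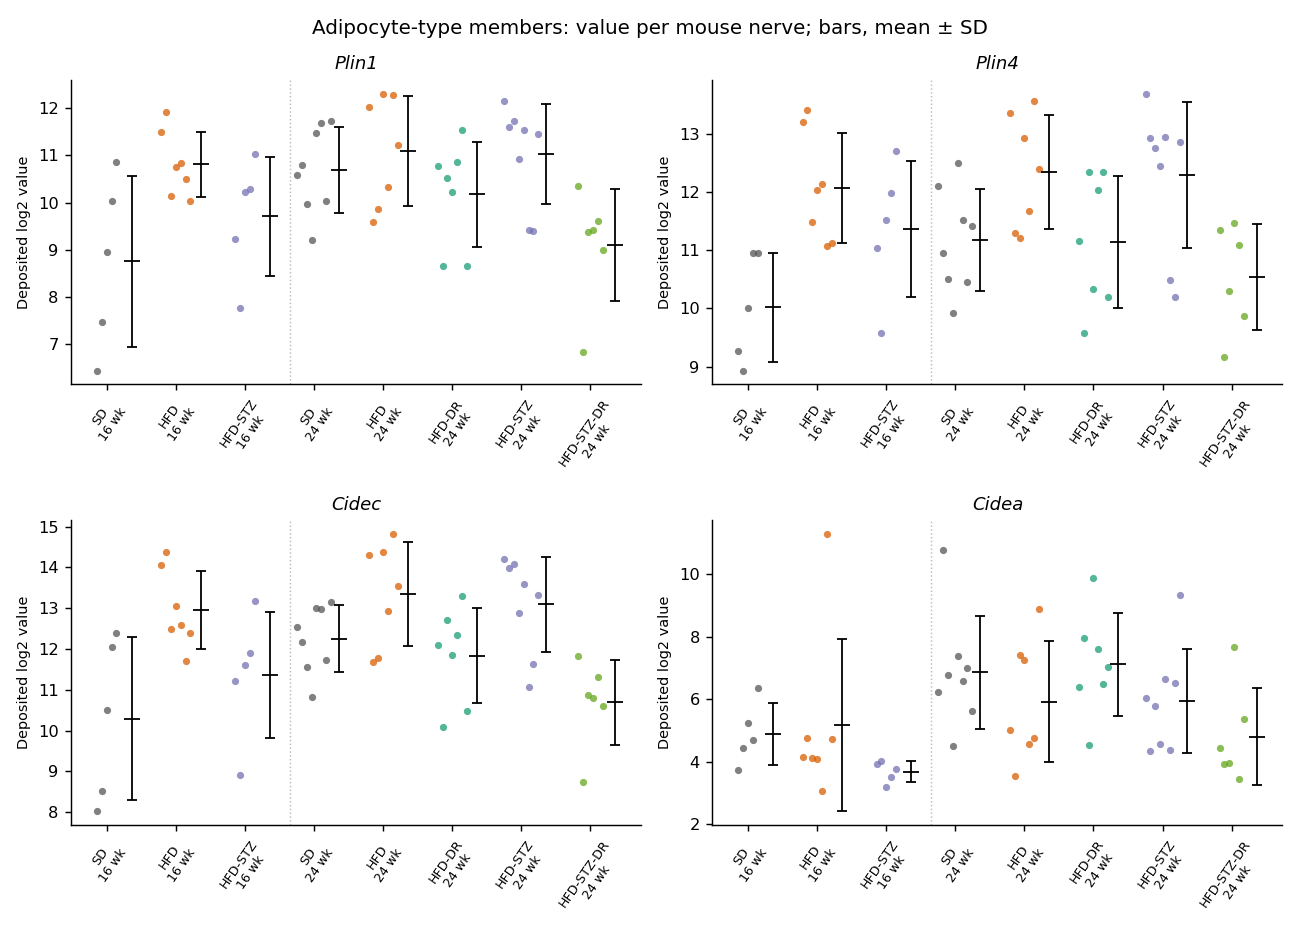
Deposited log2 values of Plin1, Plin4, Cidec and Cidea in each nerve by group, with black bars for the mean ± SD. In Plin4 all 7 HFD nerves at 16 weeks lie above all 5 SD nerves, Plin1 and Cidec are lowest on average in SD at 16 weeks and in HFD-STZ-DR, and Cidea spreads from 3.07 to 11.28 with wide overlap of most groups.

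Cidea, the droplet-fusing protein best known from brown fat, did not follow the other adipocyte-type members. Its group medians lay between 3.77 and 7.04 and its values between 3.07 and 11.28. Single nerves stood far from their groups, with 11.28 in replicate 6 of HFD at 16 weeks, whose group had a median of 4.15, and 10.77 in replicate 2 of SD at 24 weeks, whose group had a median of 6.67. The mean of 4 brown or beige adipocyte markers (Ucp1, Elovl3, Cox8b and Otop1) was at most 6.42 in HFD-STZ-DR nerves but reached 10.17 in 16-week HFD and 9.76 in 24-week SD nerves. Otop1 alone ran from 9.72 to 11.03 over all nerves and had its highest group mean, 10.31, in HFD-STZ-DR. Across the 53 nerves, as deviations from group means, Cidea correlated with the brown or beige mean (r = 0.917) and not with the adipocyte mean (r = 0.033). The r of 0.917 is a description without a test. It includes the nerves with Cidea at 11.28 and 10.77, whose brown or beige means were 10.17 and 9.76, and was not computed without them. At 16 weeks SD nerves read 3.73, 4.43, 5.23, 4.69 and 6.36 and HFD-STZ nerves 3.93, 4.01, 3.20, 3.51 and 3.77, and 4 of 5 SD nerves lay above all HFD-STZ nerves. This was the member lower in HFD-STZ, by -1.20 ± 0.41 on the log2 scale (adjusted p = 0.576, exact permutation p = 0.0317). These HFD-STZ values, from 3.20 to 4.01, lay close to 3.32, the lowest mean set for a test. The comparison with 24 weeks that follows uses the same low values. All 8 HFD-STZ nerves at 24 weeks in turn lay above those of 16 weeks, from 4.33 over 5.92 to 9.34. Such a separation was seen in 0.512% of all genes tested, the difference was 2.27 ± 0.69, and limma gave adjusted p = 0.289, with 0% of all genes called. The exact permutation p of 0.00155 was the smallest possible. Between the same nerves the brown or beige marker mean differed by 1.14 (exact permutation p = 0.00622), from 4.61 to 5.10 at 16 and from 4.92 to 8.19 at 24 weeks. Its genes differed unequally, with means at 16 and 24 weeks of 4.72 and 7.10 for Cox8b and 3.31 and 4.69 for Ucp1. Otop1 averaged 9.97 and 10.26, and Elovl3 1.56 and 2.06, under the mean of 3.32 set for a test. The muscle marker mean was 7.62 ± 0.87 (SD) and 9.63 ± 2.64 in these nerves. The parts of both marker means in the Cidea difference were not tested.

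Among the oxidative-tissue members, Plin5 ties droplets to mitochondria in muscle, heart and liver. At 16 weeks, SD nerves read 4.71, 5.86, 4.56, 6.14 and 6.34 and HFD nerves ran from 6.36 over 7.20 to 9.44, so that the lowest HFD nerve lay just above the highest SD nerve. Of all genes tested, 0.317% separated in that direction. The difference was 1.85 ± 0.49 (limma p = 0.00216, adjusted p = 0.385, exact permutation p = 0.00253, the smallest possible). HFD-STZ nerves read 5.61, 5.15, 6.60, 6.05 and 7.31, overlapping both, with a difference from HFD of -1.23 ± 0.49 (adjusted p = 0.987, exact permutation p = 0.0429). At 24 weeks the SD values were 5.68 at the lowest, 7.99 at the median and 9.16 at the highest, and HFD and HFD-STZ means lay -0.07 ± 0.57 and 0.28 ± 0.57 from the SD mean. The change of the HFD effect with age, tested directly, was -1.91 ± 0.82, with an adjusted limma p of 1, and Plin5 was the only member with an unadjusted p under 0.05, where 1.67% of all genes had one.

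HFD-STZ-DR nerves ranged widely in Plin5, from 4.22 over 5.63 to 10.24, with a difference from HFD-STZ of -1.68 ± 0.76 (adjusted p = 0.746, exact permutation p = 0.0713). The value of 10.24 belonged to replicate 4, the nerve with the highest muscle marker mean, 16.61. Without it that difference was -2.46, with adjusted p = 0.105. Without replicate 7 of HFD-STZ the difference was -1.88 (adjusted p = 0.503). Plin5 varied with the muscle marker mean as well as with the adipocyte marker mean, and with the muscle mean as a covariate the difference from HFD-STZ was -1.94 ± 0.60, with the adipocyte mean as a covariate 0.24 ± 0.87.

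Fitm1, a droplet-forming protein of skeletal muscle and heart, followed the muscle markers. In HFD nerves at 24 weeks it ran from 3.03 over 3.78 to 8.19 and in HFD-DR nerves from 3.67 over 6.89 to 10.43, with 2 of 7 HFD-DR nerves above all HFD nerves. The difference was 2.55 ± 0.96 (limma p = 0.0172, adjusted p = 0.642, exact permutation p = 0.0408). In the same nerves the muscle marker mean was 9.60 ± 2.70 (SD) in HFD, from 6.89 to 14.73, and 12.41 ± 2.43 in HFD-DR, from 8.99 to 15.87, with 5 of 6 muscle markers at p under 0.05 in the same direction and none called. With the muscle marker mean as a covariate, the Fitm1 difference was 0.41 ± 0.30. Its exons share 11.2% of their bases with the antisense gene Gm15932, and the study's methods name a non-stranded kit, so reads of these genes cannot be told apart there.

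**Figure D3:**
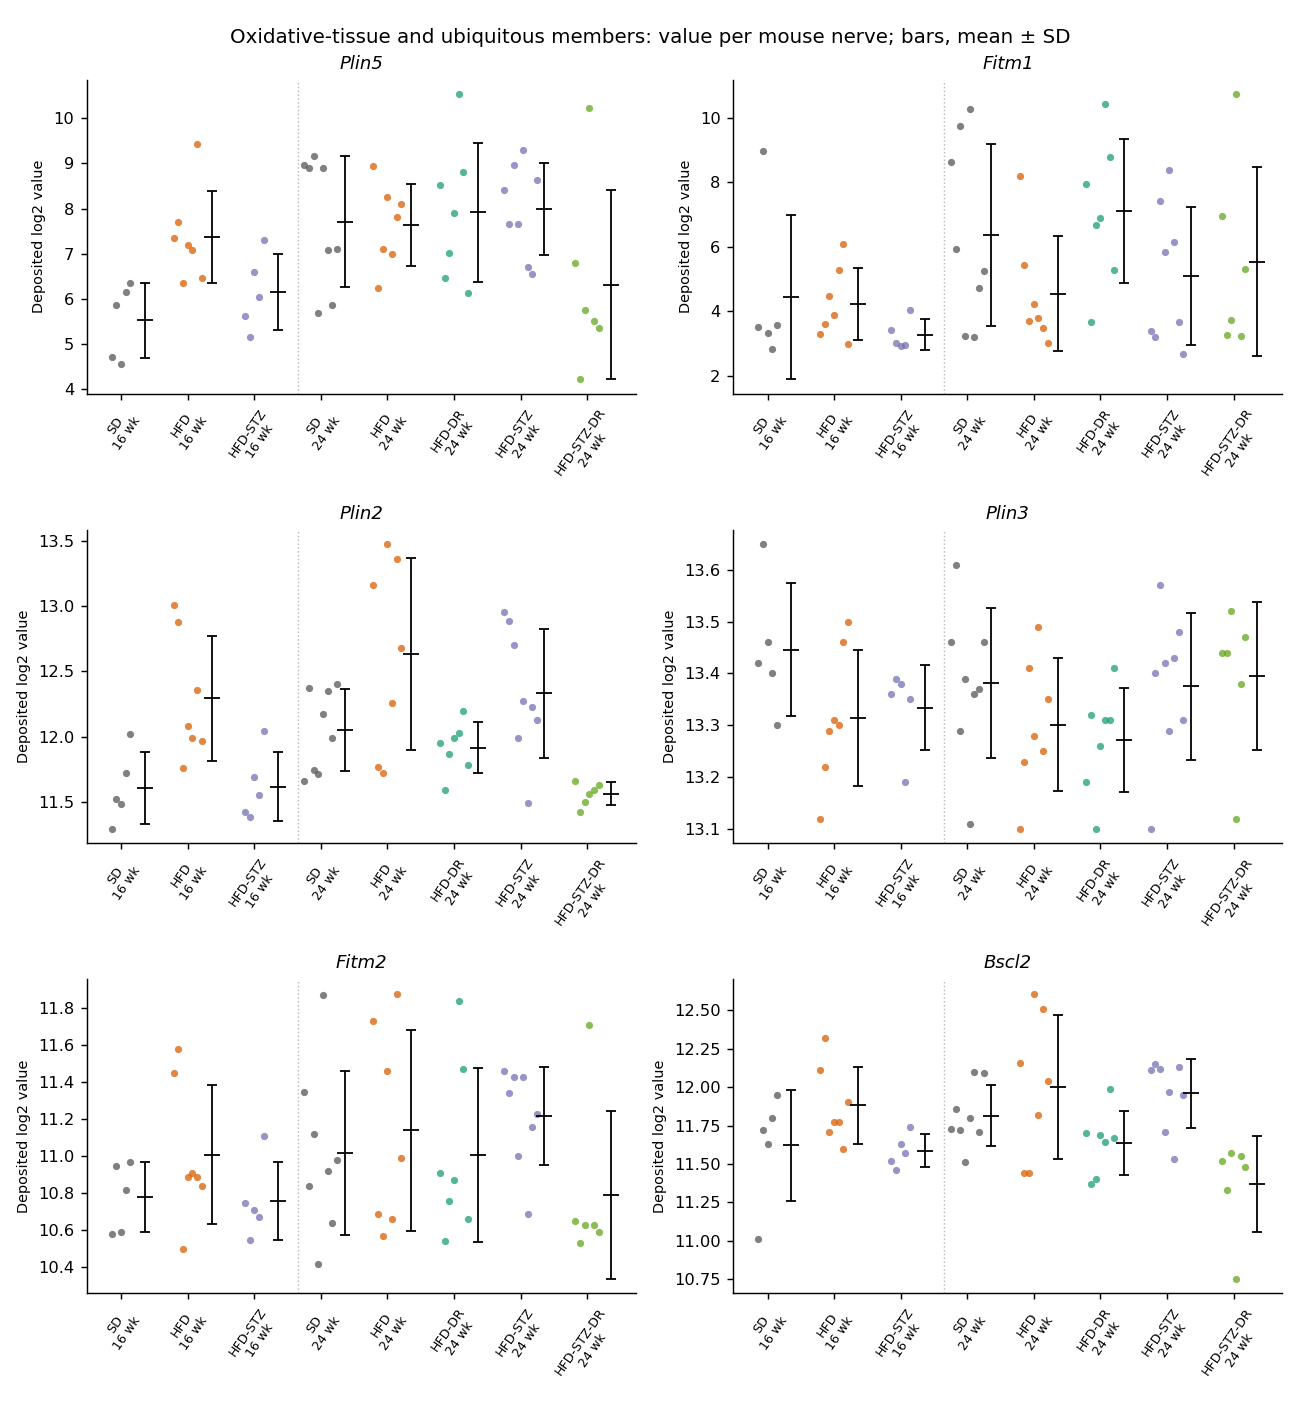
Deposited log2 values of Plin5, Fitm1, Plin2, Plin3, Fitm2 and Bscl2 in each nerve by group, with black bars for the mean ± SD. Fitm1 spreads from 2.69 to 10.73 with wide overlap of the groups, Plin3 stays between 13.10 and 13.65 in all nerves, and the 6 HFD-STZ-DR nerves form the tightest group for Plin2, at 11.42 to 11.66.

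Plin2, the coat protein that most cells put on droplets when they take up fatty acids, had the largest differences from SD of the ubiquitous members in HFD mice of both ages. SD nerves at 16 weeks read 11.29, 11.52, 11.48, 11.72 and 12.02, and HFD nerves ran from 11.76 over 12.08 to 13.01. Above the highest SD nerve lay 4 of 7 HFD nerves, and the difference was 0.69 ± 0.21 (adjusted p = 0.45, exact permutation p = 0.0126). HFD-STZ nerves at that age read 11.42, 11.38, 11.69, 11.55 and 12.04, within 0.01 ± 0.15 of SD and -0.68 ± 0.21 from HFD (adjusted p = 0.987, exact permutation p = 0.0126). No gene was called between the 2 models at that age (0%), and 4.88% had p under 0.05, among them 5 of the 10 members, Plin1, Cidec, Plin5, Plin2 and Bscl2, all with lower means in HFD-STZ. The adipocyte marker mean averaged 11.16 ± 1.40 (SD) in the 5 HFD-STZ nerves, from 8.94 to 12.64, and 12.24 ± 0.77 in the 7 HFD nerves, a difference of -1.08 (exact permutation p = 0.131). With it as a covariate the differences were -0.19 ± 0.18 for Plin1, -0.37 ± 0.13 for Cidec, -0.94 ± 0.54 for Plin5, -0.42 ± 0.19 for Plin2 and -0.15 ± 0.09 for Bscl2.

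At 24 weeks Plin2 ran from 11.66 over 12.08 to 12.40 in SD, from 11.72 over 12.68 to 13.48 in HFD and from 11.49 over 12.25 to 12.96 in HFD-STZ nerves. Differences from SD were 0.59 ± 0.26 in HFD (adjusted p = 0.521, exact permutation p = 0.0662) and 0.29 ± 0.19 in HFD-STZ (adjusted p = 0.832, exact permutation p = 0.189). HFD-DR nerves lay between 11.59 and 12.20, with a median of 11.95, and 5 of 7 HFD nerves lay above all of them. This difference was -0.72 ± 0.26 (limma p = 0.0128, adjusted p = 0.639, exact permutation p = 0.0344).

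HFD-STZ-DR nerves held Plin2 between 11.42 and 11.66 around a median of 11.57, below 7 of 8 HFD-STZ nerves, with a difference of -0.77 ± 0.19 (limma p = 0.00104, adjusted p = 0.179, exact permutation p = 0.004). Without replicate 7 of HFD-STZ the Plin2 difference was -0.79 ± 0.20 (adjusted p = 0.113), and without replicate 4 of HFD-STZ-DR it was -0.77 ± 0.21 (adjusted p = 0.189). HFD-STZ-DR nerves also lay below all 8 SD nerves of that age, though the highest HFD-STZ-DR and the lowest SD nerve both rounded to 11.66. Such a separation downwards was seen in 0.0391% of all genes tested, and the difference from SD was -0.49 ± 0.12 (limma p = 0.00134, adjusted p = 0.313, exact permutation p = 0.000666, the smallest possible). In that comparison 0% of all genes were called and 9.16% had p under 0.05, among them Plin1, Cidec, Cidea, Plin2 and Bscl2, each with a lower mean in HFD-STZ-DR. The adipocyte marker mean differed by -1.52 between the same nerves (exact permutation p = 0.0186), and with it as a covariate the differences were -0.13 ± 0.22 for Plin1, -0.25 ± 0.18 for Cidec, -1.37 ± 1.05 for Cidea, -0.29 ± 0.14 for Plin2 and -0.30 ± 0.16 for Bscl2. Between HFD-STZ-DR and HFD-DR nerves the difference was -0.36 ± 0.09 (adjusted p = 0.999, exact permutation p = 0.0035), 6 of 7 HFD-DR nerves lay above every HFD-STZ-DR nerve, and Plin2 ranked 3 of 18189 genes by p in a comparison without a call (0%).

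Bscl2, which encodes seipin and helps form the neck between a growing droplet and the endoplasmic reticulum, varied less. HFD-STZ nerves at 24 weeks ran from 11.53 over 12.04 to 12.15 and HFD-STZ-DR nerves from 10.75 over 11.50 to 11.57, and 7 of 8 HFD-STZ nerves lay above all HFD-STZ-DR nerves. The difference was -0.59 ± 0.14 (limma p = 0.000576, adjusted p = 0.134, exact permutation p = 0.002), and -0.47 without replicate 4 of HFD-STZ-DR, the lowest. Without replicate 7 of HFD-STZ it was -0.57 (adjusted p = 0.102). HFD-DR nerves differed from HFD by -0.37 ± 0.18 (exact permutation p = 0.0903). Its exons share 6.7% of their bases with Gng3 on the opposite strand.

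Fitm2, the widely made FIT protein needed for droplets to bud, lay between 10.42 and 11.88 in all nerves. In HFD-STZ-DR it ran from 10.53 over 10.63 to 11.71 against 10.69 over 11.29 to 11.46 in HFD-STZ, a difference of -0.43 ± 0.18 (adjusted p = 0.686, exact permutation p = 0.048). The highest HFD-STZ-DR value was replicate 4, and without it the difference was -0.61 with adjusted p = 0.0839. Without replicate 7 of HFD-STZ the difference was -0.43 (adjusted p = 0.545). Plin3, a soluble perilipin that coats nascent droplets in most cells, kept within 13.10 to 13.65, and its group means lay between 13.27 and 13.45. No comparison gave Plin3 an unadjusted limma p under 0.05, and the 95% interval of the difference for HFD against SD at 24 weeks was -0.24 to 0.07.

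Several members had higher means at the later age in SD and HFD-STZ mice. Between 16 and 24 weeks, 6 of 10 members had limma p under 0.05 in SD mice, all with higher means at 24 weeks, where 10.5% of all genes had p under 0.05 and 0% were called. Plin5 differed by 2.18 ± 0.64 (adjusted p = 0.353, exact permutation p = 0.014), Cidea by 1.97 ± 0.79, Cidec by 1.96 ± 0.69, Plin1 by 1.93 ± 0.66, Plin4 by 1.15 ± 0.45 and Plin2 by 0.44 ± 0.16. The adipocyte marker mean differed by 1.72 between the same nerves (exact permutation p = 0.0482), with 5 of 6 markers at p under 0.05. The muscle marker mean was 8.83 ± 3.01 (SD) at 16 and 11.26 ± 3.18 at 24 weeks. With the adipocyte mean as a covariate, the differences were 1.37 ± 0.71 for Plin5 and 1.05 ± 0.90 for Cidea. They were 0.17 ± 0.25 for Cidec, 0.21 ± 0.23 for Plin1, 0.12 ± 0.31 for Plin4 and 0.16 ± 0.15 for Plin2. With the muscle mean instead, Plin5 differed by 1.57 ± 0.55. Cidea, Cidec, Plin1, Plin4 and Plin2 then differed by 1.82, 2.16, 2.09, 1.09 and 0.49. In HFD-STZ mice 7 of 10 members had p under 0.05, with higher means at 24 weeks, against 12.5% of all genes, and the adipocyte marker mean differed by 1.35 (exact permutation p = 0.0917). The muscle marker mean averaged 7.62 ± 0.87 (SD) in the 16-week and 9.63 ± 2.64 in the 24-week HFD-STZ nerves. In HFD mice 0 of 10 members had p under 0.05, against 5.9% of all genes and 0.0654% called. The 16-week and 24-week nerves are separate samples. By library number, both ages were present in runs 1 to 5 and 7, and runs 6 and 8 held 24-week nerves only. Whether the 2 ages were otherwise handled together is not known.

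The members' values were then set against the marker means, as deviations from group means over the 53 nerves, with 20 relations tested by 100000 permutations within groups. With the adipocyte mean, Pearson's r was 0.971 for Plin1 and 0.971 for Cidec, with Spearman's rho of 0.98 for both, and r was 0.909 for Plin4 with rho 0.911. Permutation p for each was 1e-05, the smallest possible, and the adjusted p 3.3e-05 for r and 2.9e-05 for rho. Without the 2 nerves farthest from the median of the marker mean these relations kept an adjusted p of 2.9e-05. Ubiquitous members followed less closely, with r = 0.700 for Plin2 (rho 0.796), 0.650 for Bscl2 (rho 0.71) and 0.62 for Fitm2 (rho 0.730), adjusted permutation p 7.5e-05 or below. Plin3 ran the other way, with r = -0.400 and rho = -0.440 (adjusted permutation p = 0.01 and 0.0047), and the value became -0.335 with adjusted permutation p = 0.051 once the runs of library numbers were removed as well. Plin5 correlated with the adipocyte mean (r = 0.550, rho = 0.584, adjusted permutation p = 7.5e-05 and 5e-05) and with the muscle mean (r = 0.610, rho = 0.53, adjusted permutation p = 8.9e-05 and 0.0008). Fitm1 followed the muscle mean (r = 0.958, rho = 0.955, adjusted permutation p = 3.3e-05 and 2.9e-05) and not detectably the adipocyte mean (r = 0.163, rho = 0.093, adjusted permutation p = 0.4 and 0.74). The relations were not particular to these 2 means. As a description over the same deviations, r with the macrophage mean was 0.692 for Plin2 and 0.659 for Bscl2, r with the endothelial cell mean was 0.855 for Plin1 and 0.840 for Plin4, and Fitm2 stood at -0.679 with the Schwann cell mean. Plin3 had r = 0.757 with the Schwann cell mean and r = -0.57 with the endothelial cell mean, both farther from 0 than its r with the adipocyte mean. The parts of these cell types in the members' differences were not tested.

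**Figure D4:**
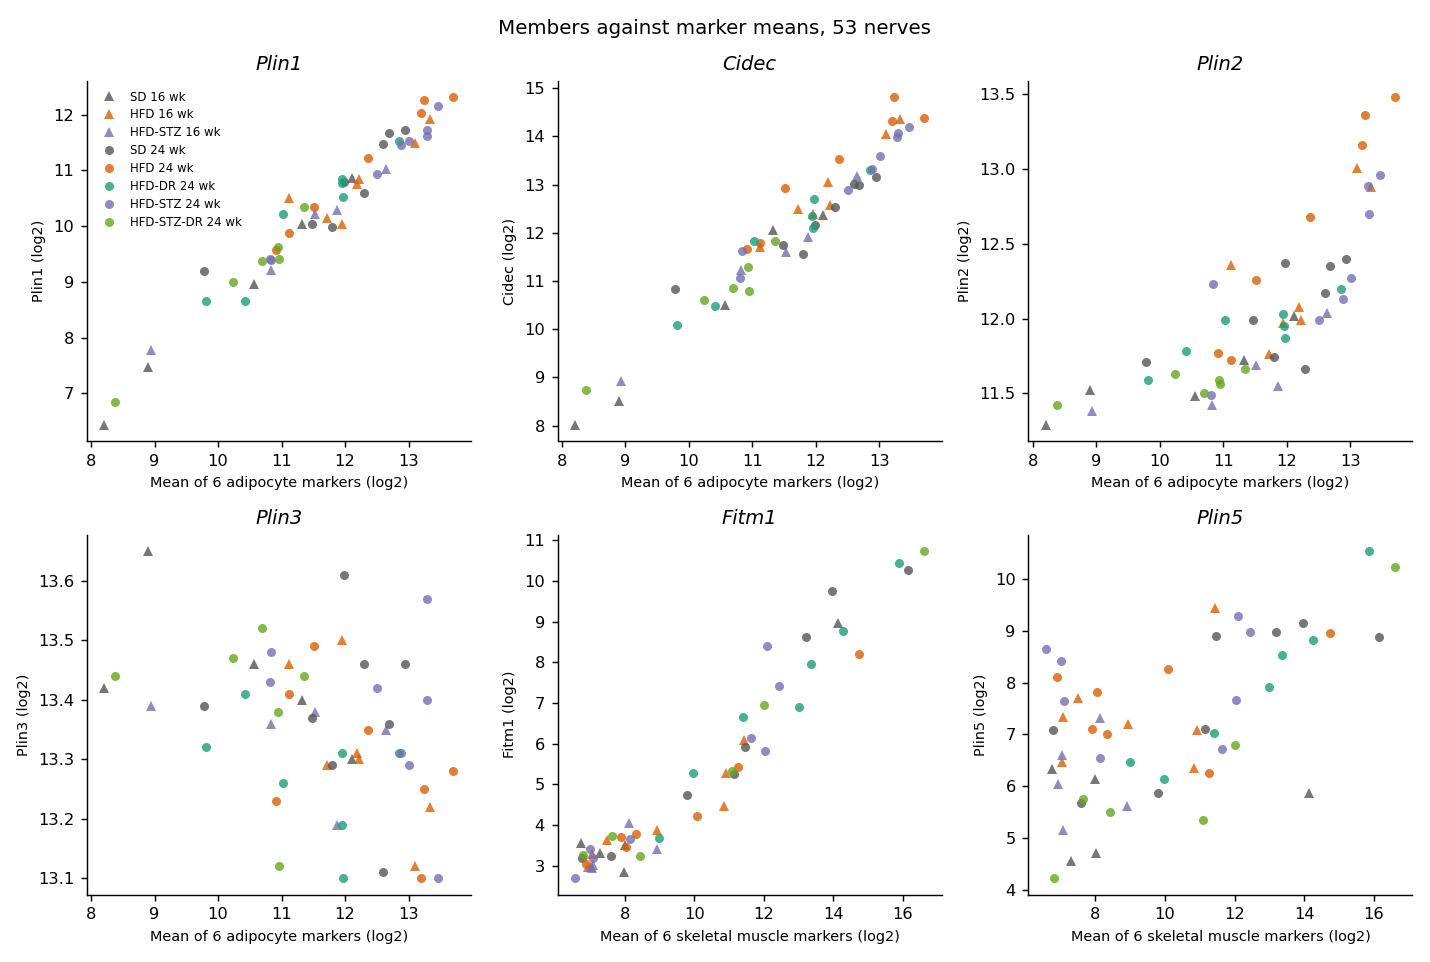
Log2 values of 6 members against the mean log2 value of 6 adipocyte or 6 skeletal muscle markers in each of 53 nerves, coloured by group, triangles for 16 and circles for 24 weeks. Plin1 and Cidec lie close to a line with the adipocyte mean (r = 0.971 within groups for both), Plin2 less closely, Plin3 scatters over a narrow range (r = -0.400), and Fitm1 follows the muscle mean (r = 0.958).

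Beside the members, the adipocyte marker mean (given as mean ± SD) was 10.22 ± 1.64 in the 5 SD nerves at 16 weeks, from 8.21 to 12.11, and 12.24 ± 0.77 in the 7 HFD nerves, from 11.12 to 13.33, with an exact permutation p of 0.0227. The lowest value of any of these 6 genes in any nerve was 5.13, for Adrb3. At 24 weeks it averaged 11.94 ± 1.00 for SD, 12.29 ± 1.12 for HFD and 12.51 ± 1.08 for HFD-STZ mice. After DR it averaged 11.43 ± 1.05 in the HFD model, where it ran from 9.81 to 12.85 against 10.92 to 13.70 without DR, and 3 of 6 markers had p under 0.05 downwards and 1 upwards. It averaged 10.43 ± 1.07 after DR in the HFD-STZ model, where it ran from 8.38 to 11.35 against 10.81 to 13.46 without DR, with exact permutation p = 0.00799, and 5 of 6 markers had p under 0.05 downwards. With this mean as a covariate in limma, the members' differences for DR in the HFD-STZ model became 0.21 ± 0.13 for Plin1, 0.30 ± 0.28 for Plin4, -0.27 ± 0.16 for Cidec, -0.29 ± 0.22 for Plin2 and -0.46 ± 0.19 for Bscl2. At 16 weeks the HFD differences from SD became 0.01 ± 0.24 for Plin1, 0.65 ± 0.31 for Plin4, 0.23 ± 0.17 for Cidec, 1.58 ± 0.66 for Plin5 and 0.24 ± 0.22 for Plin2.

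HFD against SD at 24 weeks was the disease comparison in which the adipocyte marker mean differed least, by 0.35 (exact permutation p = 0.543), with 2 of 6 markers at p under 0.05 upwards and 1 downwards. This small difference joined opposite moves. Lep, Fabp4 and Adipoq averaged 13.37, 14.89 and 13.34 in HFD against 10.08, 13.81 and 12.56 in SD. Cfd, Adrb3 and Retn averaged 13.26, 8.06 and 10.83 against 15.13, 8.91 and 11.18. Whether the fat content of these nerves was equal was not tested. In that comparison the covariate left 0.08 ± 0.15 for Plin1, 0.91 ± 0.22 for Plin4 (adjusted p = 0.0852), 0.77 ± 0.17 for Cidec (adjusted p = 0.0605) and 0.44 ± 0.15 for Plin2 (adjusted p = 0.264). In HFD-DR against HFD it left -0.57 ± 0.17 for Cidec (adjusted p = 0.385), -0.42 ± 0.20 for Plin4, -0.35 ± 0.15 for Plin2 and -0.03 ± 0.13 for Plin1, and with the muscle mean instead the values were -2.09 ± 0.61, -1.76 ± 0.51, -0.89 ± 0.29 and -1.55 ± 0.55, none of which passed the adjusted threshold. A mean of 6 macrophage markers was 10.26 ± 0.56 in HFD nerves, from 9.56 to 11.11, and 9.73 ± 0.17 in HFD-DR nerves, from 9.55 to 9.96 (exact permutation p = 0.0303), with 3 of 6 markers at p under 0.05 downwards, and its part in these values was not tested.

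Since Plin1 and Cidec were nearly parallel across nerves, the difference of their log2 values within each nerve was computed. This measure was chosen after the values of all member pairs were seen and is given as a description without a test. Gene length cancels when this difference is compared between groups. Cidec minus Plin1 ran from 1.31 over a median of 1.55 to 1.95 in SD nerves at 24 weeks, from 1.91 over 2.28 to 2.58 in HFD and from 1.65 over 2.05 to 2.37 in HFD-STZ nerves. All 7 HFD and all 8 HFD-STZ nerves lay above the SD median. The means ± SD were 1.56 ± 0.20 for SD, 2.26 ± 0.25 for HFD and 2.07 ± 0.25 for HFD-STZ nerves, and the models differed from SD by 0.69 and 0.50.

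After DR the measure ran from 1.31 over 1.62 to 2.18 in HFD-DR and from 1.39 over 1.54 to 1.91 in HFD-STZ-DR nerves, and each of these nerves lay below the median of its disease group. The differences were -0.59 for DR in the HFD model and -0.48 for DR in the HFD-STZ model. At 16 weeks HFD nerves differed from SD by 0.59 and HFD-STZ nerves by 0.12. Plin4 minus Plin1, the other pair described, had mean differences from SD of 0.77 in HFD and 0.77 in HFD-STZ mice at 24 weeks. At 16 weeks these differences were -0.02 and 0.39, smaller than the SD of 1.00 among SD nerves. The reversal differences were -0.29 in the HFD and 0.18 in the HFD-STZ model.

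**Figure D5:**
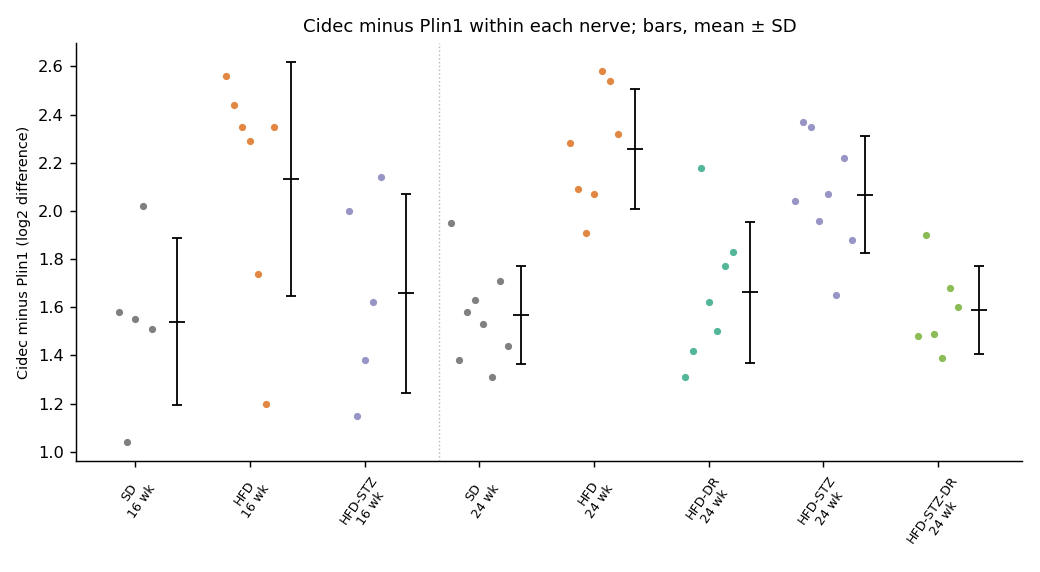
Cidec minus Plin1 (difference of log2 values within a nerve) for each of 53 nerves by group, with black bars for the mean ± SD. At 24 weeks the SD mean is 1.56, the HFD mean 2.26 and the HFD-STZ mean 2.07, and the means of the DR groups are 1.66 and 1.59.

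Other genes of fat storage were counted in lists, none of which held a gene past the adjusted threshold in any comparison. The share of all genes with limma p under 0.05 was 8.55% and 9.05% for HFD against SD at 16 and 24 weeks. For DR it was 6.72% in the HFD and 6.48% in the HFD-STZ model. The part of the adipocyte marker mean in the differences of these lists was not tested. Of 6 genes of triglyceride breakdown, 5 had limma p under 0.05 with higher means in HFD than SD nerves at 16 weeks (median difference of the list 0.62), 1 did at 24 weeks, and with DR 3 in the HFD model (median -0.60) and 5 in the HFD-STZ model (median -0.78) had lower means. The largest differences for HFD against SD at 24 weeks were 0.74 ± 0.23 for G0s2, an inhibitor of the lipase ATGL (adjusted p = 0.307), 0.61 ± 0.49 for Pnpla3, a droplet-bound lipase-like protein, and 0.48 ± 0.40 for Lipe, the hormone-sensitive lipase. G0s2 also differed by 0.73 ± 0.19 in HFD-STZ against SD (adjusted p = 0.467), by -0.70 ± 0.26 with DR in the HFD model (adjusted p = 0.642) and by -0.88 ± 0.19 with DR in the HFD-STZ model (adjusted p = 0.102).

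Of 7 genes of triglyceride synthesis, 2 had p under 0.05 upwards in HFD against SD at 16 weeks and 1 at 24 weeks, and with DR 2 downwards in the HFD model (median -0.26) and 5 in the HFD-STZ model (median -0.59). Dgat2, which makes triglyceride from diacylglycerol, differed by 1.11 ± 0.43 in HFD against SD at 24 weeks (adjusted p = 0.453), Acsl1 by 0.45 ± 0.34 and Mogat1 by -0.29 ± 0.36. Of 6 transcription factors of fat cells, 3 had p under 0.05 upwards in HFD against SD at 16 weeks. At 24 weeks 1 did downwards, Srebf1, with -0.32 ± 0.12 (adjusted p = 0.438), beside 0.52 ± 0.47 for Pparg and 0.34 ± 0.39 for Cebpa. Of 13 droplet-bound proteins other than the members, Cavin1 was not listed under that symbol, and Cideb and Hsd17b13 had values too low for a test. The 10 tested had 0 genes with p under 0.05 in HFD against SD at either age, and medians of -0.06 and -0.05. Their largest differences at 24 weeks were 0.29 ± 0.23 for Hsd17b11, 0.22 ± 0.15 for Cav1 and 0.20 ± 0.15 for Hilpda, a hypoxia-induced droplet protein that blocks ATGL.

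Across the 53 nerves, with group differences left in, the genes most like Plin1 among 18069 were A530016L24Rik (r = 0.974), Cidec (0.971), Adipoq (0.971), Lipe (0.964) and Acp5 (0.962). Most like Plin2 were Tmem120a (0.936), Apmap (0.936), Tmem135 (0.931), Dgat2 (0.917) and Aldh1a7 (0.908). Plin5 was most like Cebpb (0.893), Acadl (0.878), Acads (0.876), Etfa (0.873) and Acadm (0.870), of which Acadl, Acads, Etfa and Acadm encode proteins of fatty acid oxidation in mitochondria. These points share the groups and the normalisation, the adipocyte and muscle marker means differed between the nerves, and the values of r are descriptions.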

How the data were processed

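RNA of 53 nerves was sequenced. The submitters' processing notes name HISAT2, featureCounts, DESeq2 and the build mm10 (GRCm38). The deposited values are log2 values, 1 per gene and sample, normalised by the authors with a transformation not given in the sources used here, so no count model was used. The labels and the study's methods name different library kits. The files do not give the depth of each sample, and the study's methods give only an approximate depth for the series. Each comparison was fitted with limma 3.58.1 (R 4.3.3) on its groups alone, with a variance prior following mean expression, for genes whose log2 values averaged 3.32 or more (10 on the linear scale) and without the 25 genes with a value above 22. Adjusted p-values (Benjamini-Hochberg) cover all genes tested. Exact permutation tests were 2-sided. Correlations and exact tests used numpy 2.4.6 and scipy 1.17.1. Scripts were tested on simulated data.

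Members and lists were chosen with earlier results of these data known. Named were all members, the 3 genes of each list with the largest difference in HFD against SD at 24 weeks, every gene past the threshold and the 5 genes most like Plin1, Plin2 and Plin5. Genes were placed by GENCODE on GRCm38. The 8 runs of consecutive library numbers are of unknown meaning and served as a covariate. Alternatives were 2 other filters, all 8 groups in 1 fit with and without the runs, the runs within a comparison, 2 other variance priors, centring on sample medians, marker means as covariates and leaving out each sample.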

Additional observations from a re-analysis of the deposited data

Results flagged for a closer look

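In 80 sets of 1 member in 1 group, 8 values, from 6 nerves, lay further from the others than Dixon's 95% limit allows, and chance alone flags about 1 in 20 such sets. Cidea gave 3 of them, with 11.28 in replicate 6 of HFD at 16 weeks (nearest value 4.75), 10.77 in replicate 2 of SD at 24 weeks (nearest 7.39) and 9.34 in replicate 8 of HFD-STZ at 24 weeks (nearest 6.64). Replicate 4 of HFD-STZ-DR gave 3, with the lowest Plin3 (13.12, nearest 13.38), the highest Fitm2 (11.71, nearest 10.65) and the lowest Bscl2 (10.75, nearest 11.33) of its group. This nerve also held the highest muscle marker mean of the series, 16.61. Fitm1 stood at 8.96 in replicate 2 of SD at 16 weeks (nearest 3.56), the nerve with the highest muscle marker mean of its group, 14.14. Plin3 was lowest in replicate 4 of HFD-STZ at 16 weeks, at 13.19 against 13.35, a small step within a narrow range.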

How the results depend on the processing

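The count of 0 members called changed in 3 of the 17 comparisons and differences of effects. With library-number runs as a covariate, 3 members passed in HFD-STZ against SD at 16 weeks, Plin1 (1.97, adjusted p = 0.0438 in limma), Plin4 (2.03, 0.00222) and Cidec (2.20, 0.0449), among 96 of 17879 genes, and 1 in HFD-STZ at 24 against 16 weeks, Plin5 (2.25, 0.0291), among 3 of 17963 genes. Nerves alone in their run had no weight in these differences. They were SD replicate 5 and HFD-STZ replicate 2 at 16 weeks, and HFD-STZ replicates 6, 7 and 8 of 24 weeks for Plin5. In HFD-STZ-DR against HFD-STZ, leaving out each sample in turn gave 0 to 3 members, with Cidec (adjusted p = 0.017), Plin2 (0.0119) and Bscl2 (0.0256) without replicate 6 of HFD-STZ and Cidec (0.0413) without replicate 7. They were among 167 of 17792 genes called without replicate 6 and 117 of 17884 without replicate 7, against 15 of 17862 with all samples. Some differences given in the text turned direction. Plin2 in HFD-STZ against SD at 16 weeks became -0.0105 with all groups and runs in 1 fit, -0.0128 with centring, -0.13 with the adipocyte and -0.0171 with the muscle covariate, and -0.10 to 0.11 with samples left out in turn, negative without SD replicates 1, 2 or 3 or HFD-STZ replicates 3 or 5. The adipocyte covariate gave -0.02 for Cidec in that comparison, -0.17 for Plin1 in HFD-STZ against SD at 24 weeks, 0.21 for Plin1, 0.30 for Plin4 and 0.24 for Plin5 in HFD-STZ-DR against HFD-STZ, 0.41 for Plin4 in HFD-DR and 0.47 in HFD-STZ-DR against SD, and -0.15 for Plin5 in HFD-STZ against SD at 24 weeks. Near 0, Plin4 in HFD-DR against SD became 0.0104 with all groups and runs in 1 fit, 0.0071 with runs and -0.23 to 0.23 with samples left out, and Plin5 in HFD against SD at 24 weeks 0.11 with runs, 0.37 with the muscle covariate and -0.35 to 0.17 with samples left out. Plin5 in HFD-STZ against SD at 24 weeks was -0.0098 to 0.49 with samples left out, negative without SD replicate 4. Among the other 108 differences, 39 of 972 refits turned direction, and 67 of 1083 with a sample left out. Correlations near 0 changed sign without the 2 farthest nerves or with the runs removed: Cidea with the adipocyte mean (-0.025, -0.019), and with the muscle mean Cidea (-0.025, without the 2 farthest), Cidec (-0.003, -0.076), Plin3 (0.125, 0.047) and Plin4 (-0.006, runs removed). With the 2 farthest nerves left out, Fitm2 with the muscle mean lost its call (0.280, adjusted permutation p = 0.13), and with the runs removed Plin3 with the adipocyte mean did (-0.335). Cidec minus Plin1 kept its direction with each sample left out (0.64 to 0.75, 0.46 to 0.56, -0.68 to -0.53 and -0.54 to -0.43 for HFD and HFD-STZ against SD at 24 weeks and for DR in the HFD and the HFD-STZ model) and with the runs as a covariate, both added after seeing the data. No paired analysis was possible because the labels give no replicate numbers. The runs, taken from the library numbers and fitted above as a block, are of unknown meaning. Over 18069 genes, samples of different groups in the same run correlated little more (mean r 0.074 over 159 pairs) than samples of different runs (-0.009 over 1065 pairs). Some values given here moved further by run, as mean deviations from group means. The muscle marker mean stood at 1.80, 2.37 and -1.96 in runs 3, 5 and 8, and Fitm1 at 1.51, 1.95 and -1.68. In run 5, Plin5 stood at 1.40, and Plin1, Cidec and the adipocyte mean each at 0.77, while Plin3 stood at -0.08.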
